A study of Mus musculus with 6 samples.

Results

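The Eph receptors and ephrins followed here are 7 genes, 4 receptors (Ephb2, Ephb3, Ephb4 and Epha2) and 3 ligands (Efnb1, Efnb2 and Efna1), out of 32285 genes in each of 6 single-cell RNA matrices of mouse small intestinal organoids. They were found by their symbols, and each symbol had 1 row in every matrix. The study asked how intracellular pH bears on cell fate in the crypt. Wild-type (WT) organoids, from stocks begun with cells of mice 10 weeks old, were cultured to day 3 with DMSO as vehicle (-EIPA, 2 libraries) or with 5 µM EIPA, a small-molecule inhibitor of sodium-proton exchange (+EIPA, 2 libraries). Organoids of a doxycycline-inducible CRISPR-Cas9 line made from the WT organoids by lentivirus, and carrying a guide RNA, were cultured to day 3 without doxycycline (-Dox, 1 library) or with 2 µg/mL of it (+Dox, 1 library). The CRISPR line was a selected clone, both of its libraries carry the guide and the Cas9 transgene, and the +Dox library was made from cells sorted for Cas9-GFP whereas the others were sorted for live cells alone. The labels do not say that the 2 libraries of a WT group came from separate mice, so p-values below measure the spread between these libraries. The fits estimate that spread in part from all genes together.

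Eph receptors are receptor tyrosine kinases, and their ligands, the ephrins, are themselves held in the membrane of the neighbouring cell, so signalling needs cell contact and runs both ways, usually ending in repulsion or retraction of the cells that touch. A-type ephrins are anchored by a lipid and bind mainly EphA receptors, whereas B-type ephrins span the membrane and bind mainly EphB receptors. In the intestine EphB2 and EphB3 are textbook targets of WNT signalling that mark the crypt base, their ligands ephrin-B1 and ephrin-B2 mark the cells above it, and the opposed gradients keep crypt and villus cells apart and Paneth cells at the crypt floor.

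The matrices held 123544 barcodes, of which 87954 cells passed the limits used here, at least 1000 genes and under 20% mitochondrial UMIs (unique molecular identifiers, which count captured RNA molecules). The kept cells of a library held 161670015 to 239368573 UMIs in all, the median cell of a library had 11478 to 17020 UMIs, and any 2 libraries shared 0.273% to 0.563% of the barcodes of the smaller. Cells fell into 25 clusters, of which 20 were named from marker lists as 8 classes: ISC-like (intestinal stem cell, 9086 cells), proliferating (30410), enterocyte-like (18952), Paneth-like (7118), Goblet-like (4397), EEC-like (enteroendocrine, 4249), tuft-like (1119) and regenerative-like (1159, led by Clu, Anxa1 and Ly6a). The other 5 clusters stayed unnamed and held 10.7% to 14.5% of the kept cells of a library. The members and the rest of their family were kept out of the genes that made the clusters. Of the markers of each class, 12 of 15 ISC, 18 of 22 enterocyte, 16 of 18 Paneth and 12 of 12 tuft markers were highest in their own class in all 6 libraries, against 5 of 12 Goblet markers, and the larger Goblet-like cluster was also led by genes of secretory progenitors. Markers of non-epithelial cells summed to 3.51 to 7.19 CPM (a gene's UMIs scaled to a common total per library or class) over 15 genes, and 14 of the 15 were under 1 CPM in every library.

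On the mouse build GRCm38 the receptors lie on chromosome 4 (Ephb2, 136647539 to 136835988, minus strand, and Epha2, 141301240 to 141329384, plus strand), chromosome 16 (Ephb3, 21204755 to 21223305, plus strand) and chromosome 5 (Ephb4, 137350109 to 137378669, plus strand). The ligands lie on the X chromosome (Efnb1, 99136130 to 99148991, plus strand), chromosome 8 (Efnb2, 8617434 to 8661242, minus strand) and chromosome 3 (Efna1, 89271733 to 89281142, minus strand). The promoters of Ephb2 and Ephb3, higher in stem cells than in enterocytes, and of Efnb2, the ligand with the steepest opposite pattern, are shown with that of Epha2, which follows another pattern. Each is 300 bases from RefSeq on GRCm38.p6, from 250 bases before the transcript start to 50 after it, read along the gene's strand. Capitals mark matches on either strand to the core of the TCF/LEF motif of WNT signalling (CTTTGA or CTTTGT) or to the GC box (GGGCGG).
Ephb2, chr4:136835963-136836262, minus strand: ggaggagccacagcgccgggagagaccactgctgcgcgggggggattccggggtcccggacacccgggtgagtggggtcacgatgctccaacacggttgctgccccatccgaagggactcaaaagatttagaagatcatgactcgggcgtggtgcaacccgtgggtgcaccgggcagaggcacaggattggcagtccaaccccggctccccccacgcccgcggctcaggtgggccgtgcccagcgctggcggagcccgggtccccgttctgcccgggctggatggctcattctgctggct
Ephb3, chr16:21204545-21204844, plus strand: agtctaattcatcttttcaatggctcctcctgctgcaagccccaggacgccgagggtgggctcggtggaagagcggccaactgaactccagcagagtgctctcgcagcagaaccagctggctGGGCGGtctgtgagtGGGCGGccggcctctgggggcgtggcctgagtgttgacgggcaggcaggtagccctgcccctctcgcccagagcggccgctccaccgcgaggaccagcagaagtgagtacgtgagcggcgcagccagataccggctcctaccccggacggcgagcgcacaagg
Efnb2, chr8:8661193-8661492, minus strand: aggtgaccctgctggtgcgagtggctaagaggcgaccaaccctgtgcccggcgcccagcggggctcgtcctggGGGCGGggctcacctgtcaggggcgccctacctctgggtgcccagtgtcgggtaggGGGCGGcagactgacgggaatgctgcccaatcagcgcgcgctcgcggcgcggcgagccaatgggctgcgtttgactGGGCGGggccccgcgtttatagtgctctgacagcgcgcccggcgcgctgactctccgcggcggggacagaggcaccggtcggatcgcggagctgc
Epha2, chr4:141300971-141301270, plus strand: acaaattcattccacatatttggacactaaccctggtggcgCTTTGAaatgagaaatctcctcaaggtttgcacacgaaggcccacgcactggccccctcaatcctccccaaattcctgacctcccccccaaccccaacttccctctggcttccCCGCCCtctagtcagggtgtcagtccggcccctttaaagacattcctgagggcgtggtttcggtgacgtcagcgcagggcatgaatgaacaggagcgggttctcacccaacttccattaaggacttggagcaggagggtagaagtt
All 7 members had a RefSeq promoter in this table, Efna1 with 2 starts. The TCF/LEF core was found in 1 of the 8 windows, that of Epha2, 209 bases before the start, whereas 31.2% of all 32851 mouse promoters of this length hold it. The GC box, found in 35.7% of all promoters, occurred 2 times in the Ephb3 window, 3 times in the Efnb2 window, 1 time in the Epha2 window and not in the Ephb2 window, whose bases were 68.7% G or C (against a median of 52.7% over all promoters). The CDX core (TTTATG or TTTATT, in 27.6% of promoters) and an HNF4 half-site (CAAAGT, in 14.4%, whose reverse strand overlaps the TCF/LEF core) were in none of the 8 windows; enhancers outside these windows were not searched.

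In every library the receptors Ephb3 and Ephb4 were higher in ISC-like than in enterocyte-like cells and the 3 ephrins higher in enterocyte-like than in ISC-like cells. Ephb2 was also higher in ISC-like cells in 6 of 6 libraries, with ranges that overlapped, and Epha2 in 3 of 6. Levels are CPM, taken from the total UMIs of each class and library, and they are compared here between classes and not between genes, and class differences are given as a description with no test, since classes are clusters of the same cells. Ephb3, which together with Ephb2 positions Paneth cells, was at 33.95 and 31.8 CPM in ISC-like cells of the -EIPA libraries, 34.4 and 26.4 in +EIPA, 27.1 in -Dox and 32.7 in +Dox. In enterocyte-like cells it was at 4.63, 7.03, 5.05, 4.95, 4.89 and 4.93 CPM in the same order. The lowest ISC-like value was thus well above the highest enterocyte-like value, and the ISC-like level was 5.95-fold that of enterocyte-like cells (mean log2 ratio 2.57 ± 0.26, SD, n = 6 libraries). The fold was 3.69 without the Harmony correction and 8.98 with the cells of highest Scrublet score left out. Paneth-like cells held more Ephb3 than ISC-like cells in 6 of 6 libraries (5 of 6 under stricter limits on cells), although the ranges of the classes overlapped (28.97 to 50.79 against 26.38 to 34.45 CPM). EEC-like cells, the hormone-secreting lineage, held the most, 49.8 to 67.6 CPM, and proliferating cells 14.7 to 18.6.

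Ephb4, a receptor for ephrin-B2 best known from veins, was at 19.2 and 20.8 CPM in ISC-like cells without EIPA and at 7.06 and 10.6 CPM in enterocyte-like cells of those libraries. The ISC-like level was higher in 6 of 6 libraries, by 2.62-fold (log2 1.39 ± 0.33), and tuft-like cells were highest on the mean, at 33.8 CPM ± 13.1 (SD, n = 6). Ephb4 was higher in the CRISPR line than in WT organoids: 26.6 and 22.0 CPM over all cells of -Dox and +Dox, against 12.2 to 17.2 in the 4 WT libraries. In 8 of 8 classes both CRISPR libraries lay above all 4 WT libraries, and Efnb2 did so in 6 of 8 classes. In the sum over all cells alone, 28.9% of genes had both CRISPR libraries above all 4 WT libraries. The share of genes that did so in as many classes was not counted. The clone and the line's other differences from WT cannot be told apart.

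Ephb2, the receptor often used to sort stem cells from crypts, barely differed between ISC-like, proliferating, Paneth-like and Goblet-like cells. It was at 39.2 and 29.8 CPM in ISC-like cells of the -EIPA libraries and at 38.9 and 31.2 CPM in their proliferating cells. The mean over the 6 libraries was 35.2 CPM in ISC-like, 36.3 in proliferating, 34.9 in Paneth-like and 31.9 in Goblet-like cells, and no neighbouring pair of these classes was ordered the same way in all 6 libraries, although without the Harmony correction proliferating cells were above ISC-like cells in 6 of 6 (mean log2 ratio of ISC-like to proliferating cells -0.14). Tuft-like cells, chemosensory cells, held 58.2 to 96.2 CPM and EEC-like cells 43.5 to 61.2. Enterocyte-like cells were lowest on the mean, at 20.1 CPM, below ISC-like cells in 6 of 6 libraries, but their own values ran from 12.6 to 29.8 CPM and so overlapped slightly with the ISC-like range of 29.8 to 39.2. Tuft-like and EEC-like cells also had fewer UMIs per cell (medians of 5148 to 7936 and 4983 to 6715 in the libraries) than ISC-like cells (9880 to 14403), and the part of depth in these levels was not tested.

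Epha2, a receptor for ephrin-A1 that is prominent in injured and transformed epithelia, was at 1.66 to 7.32 CPM in 7 of the classes and at 12.7 to 51.4 CPM in regenerative-like cells. The ranges did not overlap: the lowest regenerative-like library, -Dox, was above the highest value in any other class. The smaller Goblet-like cluster alone, led by Zg16 and Clca1, held 5.14 to 40.3 CPM of Epha2, within that range in 5 of 6 libraries. The regenerative-like class is small, with 71 to 429 cells and 29 to 437 Epha2 UMIs in a library. The share of all genes with levels in that class above those in every other class was not counted.

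The ligands ran the other way. Efnb2 was at 9.23 and 16.4 CPM in ISC-like cells of the -EIPA libraries, 7.89 and 11.5 in +EIPA, 12.3 in -Dox and 9.76 in +Dox. In enterocyte-like cells it was at 76.8 and 63.0, at 66.4 and 65.95 and at 85.2 and 79.9 CPM. Enterocyte-like cells thus held 6.66-fold more (log2 ratio of ISC-like to enterocyte-like -2.74 ± 0.45), and regenerative-like cells came next at 44.3 to 59.5 CPM. Efna1, the main A-type ephrin of epithelia, was at 88.5 to 108.8 CPM in enterocyte-like cells and at 23.5 to 29.5 in ISC-like cells, a ratio of 3.52 (log2 -1.81 ± 0.14). The other 7 classes lay between 22.7 and 46.7 CPM for Efna1, so that enterocyte-like cells stood alone. The share of all genes that set enterocyte-like cells apart in this way was not counted. Efnb1 varied less: 30.6 to 40.7 CPM in enterocyte-like against 20.7 to 25.6 in ISC-like cells (log2 -0.66 ± 0.15), with the highest mean in regenerative-like cells, 46.2 CPM ± 6.7.

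Between ISC-like and enterocyte-like cells, then, 2 of 7 members (Ephb3 and Ephb4) had all 6 ISC-like values above all 6 enterocyte-like values, as 34.4% of the 11702 genes with at least 1 CPM did, and the 3 ephrins had all enterocyte-like values on top, as 19.6% of genes did. The first count was 1 of 7 without the Harmony correction, where the ranges of Ephb4 overlapped and 32.3% of genes had ISC-like values on top. It was 3 of 7, with Ephb2 added, at Leiden resolution 1.6, under stricter limits on cells and with the highest Scrublet scores left out, beside 35.3%, 35.2% and 37.4% of genes. Both shares of the background are large, and the counts are too few to set the family apart from it. Genes of a class also had UMIs in other classes, and the part of free RNA and of doublets in them was not tested: the Paneth gene Lyz1 was in enterocyte-like cells at 0.55% to 1.83% of its Paneth-like level, and Olfm4, a stem cell gene, at 3.38% to 6.45% of its ISC-like level. Apoa1, an enterocyte gene, was in Paneth-like cells at 5.80% to 11.7% of its enterocyte-like level. Ephb3 in enterocyte-like cells was at 6.84% to 13.8% of its EEC-like level.

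**Figure D1:**
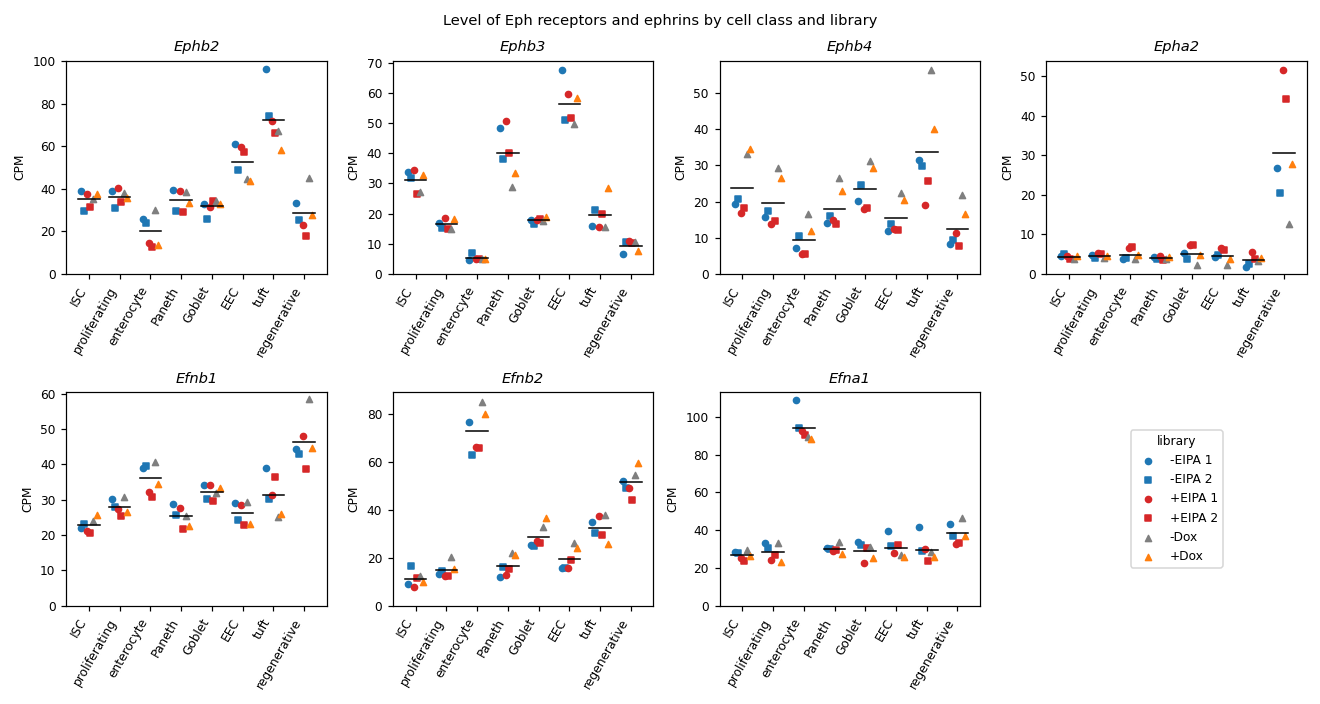
Level of the 7 members (CPM, vertical axis from 0) in the 8 cell classes (horizontal axis, names without "-like") of each of the 6 libraries (points, colour for the treatment and shape for the replicate); black lines are means over the libraries. Ephb3 drops from 26.4 to 34.4 CPM in ISC to at most 7.03 in enterocytes, Efnb2 and Efna1 peak in enterocytes, and Epha2 is highest in the regenerative class, at 12.7 to 51.4 CPM.

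Of the other 15 Eph receptors and ephrins, 5 reached a mean of 5 CPM in a class. Efna4, another A-type ephrin, ran with the crypt receptors and against Efna1: 38.8 to 52.0 CPM in ISC-like cells and 6.17 to 13.0 in enterocyte-like cells. Epha1 was highest in enterocyte-like cells (9.86 to 19.2 CPM, against 4.80 to 6.46 in ISC-like cells). Epha4 was at 7.43 to 12.6 CPM in ISC-like cells and 0.89 to 3.09 in enterocyte-like cells. It was at 12.9 to 19.8 CPM in tuft-like cells and at 5.24 to 24.6 in regenerative-like cells. Epha7 was at 6.83 to 12.1 CPM in EEC-like cells and 5.81 to 39.2 in tuft-like cells, and at most 4.96 in ISC-like cells. Efna3 was highest in EEC-like cells, at 7.13 to 15.7 CPM. The other 10 did not reach 5 CPM in any class on the mean.

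Ranked along the absorptive lineage, the receptors left the profile at different places. In each library the ISC-like, proliferating, enterocyte-like and regenerative-like cells were ordered by their enterocyte markers minus their ISC markers and divided into 10 bins of equal cell number, which are ranges of a score and not cell types. Ephb3 declined from the first bin on, from 29.2 to 40.2 CPM in bin 1 to 1.56 to 3.77 in bin 10. Ephb4 declined more gently, from 18.9 to 38.8 to 2.91 to 12.04 CPM. Ephb2 stayed near its starting level for most of the profile in the libraries without EIPA or Dox: -EIPA 1 held 44.5 CPM in bin 1, 37.1 in bin 8 and 12.1 in bin 10, and -Dox held 41.0, 39.0 and 16.3. In bin 8 it was at 19.4 and 18.4 CPM in the +EIPA libraries and at 13.0 in +Dox. The bins were not alike in makeup, since enterocyte-like cells were 77.5% and 28.7% of bin 8 in -EIPA, 97.1% and 93.8% in +EIPA, 91.4% in -Dox and 99.6% in +Dox. Efnb2 was at 7.22 to 17.0 CPM in bin 1 and climbed to 74.2 to 99.3 in bin 10, its highest bin in 6 of 6 libraries. Efna1 went from 20.1 to 25.5 to 108 to 123 CPM and had its highest bin last in 6 of 6 libraries. Efnb1 had its highest bin in 1 of bins 7 to 10.

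**Figure D2:**
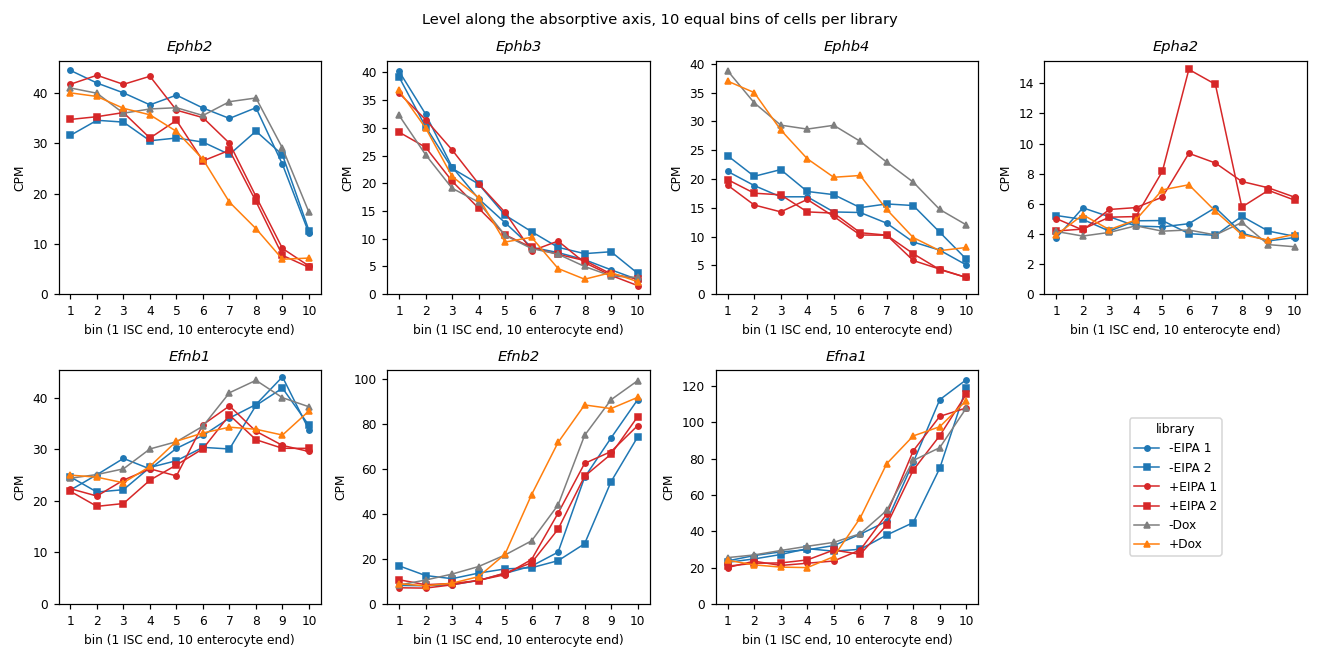
Level of the 7 members (CPM, vertical axis from 0) over 10 bins of cells ordered from the ISC end to the enterocyte end (horizontal axis), 1 line per library. Ephb3 declines from bin 1, while Ephb2 in the -EIPA and -Dox libraries stays between 27.8 and 44.5 CPM up to bin 8. In bin 9 Ephb2 is at 25.8 to 29.0 there and at 6.95 to 9.09 in the +EIPA and +Dox libraries. Bins of the same number are not matched between libraries. The enterocyte marker Alpi in bin 9 is at 105, 55.4 and 91.3 CPM in -EIPA 1, -EIPA 2 and -Dox. It is at 158, 195 and 137 CPM in +EIPA 1, +EIPA 2 and +Dox. Bins with closer Alpi do not all show the Ephb2 contrast. At 52.4 CPM of Alpi, +EIPA 2 (bin 7) holds 28.6 of Ephb2, and at 55.4 -EIPA 2 (bin 9) holds 27.7. At 47.6 of Alpi, -EIPA 1 (bin 8) holds 37.1. At 56.9 of Alpi, +Dox (bin 6) holds 26.8, and at 57.1 -Dox (bin 8) holds 39.0. Whether Ephb2 differs between libraries at matched Alpi was not tested.

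Under EIPA no member passed the test in the fit that treats the 4 WT libraries as unpaired, in any class, but the paired fit called Ephb2 lower and Epha2 higher in enterocyte-like cells. The unpaired fit (edgeR quasi-likelihood test on summed counts, adjusted p under 0.05) called 0 of 7 members among all cells, ISC-like, proliferating, Paneth-like and enterocyte-like cells, where it called 0%, 0%, 0%, 0.259% and 0.0314% of all genes; at an unadjusted p under 0.05 it had 1, 0, 1, 0 and 3 members, beside 1601 of 15890, 444 of 11871, 622 of 13736, 544 of 11961 and 2155 of 12751 genes. In Goblet-like, EEC-like, tuft-like and regenerative-like cells it called 0 members too, and 0.0261%, 0.0163%, 0.0207% and 0.19% of genes. Libraries of the same number were made in the same experiment, and with the replicate number as a block the fits called 5.28%, 7.07%, 7.86%, 2.97% and 4.27% of genes and 1, 0, 1, 0 and 2 members. With 4 libraries the block leaves very little to estimate a gene's own spread. Its p-values, here and below, therefore lean on the spread pooled over genes. In the 4 smaller classes the block called 5.96%, 1.55%, 0.61% and 10.4% of genes, and 1 member in Goblet-like and 1 in regenerative-like cells, Epha2 in both. In Goblet-like cells Epha2 had a mean of 4.52 CPM without EIPA and 7.31 with it (log2 0.76, unpaired edgeR). The smaller Goblet-like cluster held 42 and 57 of the 636 and 972 Goblet-like cells without EIPA. With EIPA it held 57 and 103 of 571 and 803. The part of this makeup in the Epha2 level was not tested. DESeq2, unpaired, called 3.86% of genes over all cells, 0.185% in ISC-like, 0.881% in proliferating, 0.694% in Paneth-like, 4.27% in enterocyte-like and 0.881% in regenerative-like cells, and of the members Epha2 over all cells and Ephb2 and Epha2 in enterocyte-like cells.

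In enterocyte-like cells Ephb2 was at 25.9 and 24.0 CPM without EIPA and at 14.5 and 12.6 CPM with it. Both +EIPA libraries lay below both -EIPA libraries. Such separation arises easily with 2 libraries a group. The share of all genes that separate this way was not counted, here or below. The fitted log2 fold change was -0.75 ± 0.14 (SE), with an adjusted p of 0.107 in edgeR's unpaired fit, 0.0244 with the replicate block and 0.00873 in DESeq2. Leaving out -EIPA 1 also brought the unpaired call (adjusted p of 0.0266 in edgeR), in a fit that called 11.1% of all genes and had 1 control library, assumed to vary like the +EIPA libraries. Leaving out each of the other 3 libraries did not. In ISC-like cells the same gene was at 39.2 and 29.8 CPM without EIPA and at 37.6 and 31.7 with it (log2 0.08 ± 0.16), and in proliferating cells at 38.9 and 31.2 against 40.5 and 33.7 (log2 0.15 ± 0.13). Its group mean was lower with EIPA in regenerative-like cells (29.3 against 20.6 CPM) and in tuft-like cells (85.3 against 69.1). It was near level in Paneth-like cells (34.5 and 33.9) and higher with EIPA in Goblet-like (29.2 against 32.9) and EEC-like cells (55.0 against 58.6). The test of the difference between enterocyte-like and ISC-like cells gave a log2 of -0.80 ± 0.22 for Ephb2, with an adjusted p of 0.447 in edgeR unpaired and 0.130 with the replicate block. Over all genes that test called 0%. Neither fit paired the ISC-like and enterocyte-like sums of a library. These fits therefore do not settle whether the lower level differs between the classes. With no filter on low counts the unpaired test called 1.56% of genes, Ephb2 (adjusted p of 0.0174 in edgeR) and Epha2 (0.0404) among them.

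The enterocyte-like class is a mixture, and its makeup moved with EIPA. Cluster 3 (led by Gstm3 and Fabp1), cluster 4 (led by Apoc3 and Apoa1, apolipoproteins of mature villus cells) and cluster 9 (led by Apoa4, with few UMIs and 13.9% mitochondrial UMIs at the median) held nearly all of its cells. Cluster 4, the lowest in Ephb2 of the 3, made up 25.7% and 19.3% of enterocyte-like cells without EIPA and 34.3% and 37.5% with it. Within each cluster both +EIPA libraries lay below both -EIPA libraries: 29.1 and 24.3 against 18.3 and 16.7 CPM in cluster 3, 11.04 and 12.4 against 6.096 and 6.93 in cluster 4, and 53.1 and 54.8 against 29.8 and 21.05 in cluster 9. Fitted alone, the clusters gave log2 fold changes of -0.50 ± 0.14, -0.74 ± 0.20 and -0.98 ± 0.23; none passed unpaired in edgeR (adjusted p of 0.266, 0.265 and 0.0647), and clusters 3 and 9 passed with the replicate block (0.0361 and 0.0207, against 0.160 in cluster 4). Over all genes the unpaired fits called 0.126%, 0.0273% and 1.93% in clusters 3, 4 and 9, and the block 6.52%, 1.09% and 6.01%. Without cluster 9 the class gave -0.68 ± 0.14. The part of makeup, between or within clusters, in the lower Ephb2 was not tested.

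Epha2 went the other way. Enterocyte-like cells held 3.68 and 3.93 CPM without EIPA and 6.64 and 6.66 with it, from 109 to 308 UMIs a library, and the groups did not overlap. The log2 fold change was 0.94 ± 0.17, with an adjusted p of 0.107 in edgeR unpaired, 0.0323 with the replicate block and 0.0117 in DESeq2; the unpaired fit without -EIPA 1, which called 11.1% of genes, called it too, with 0.0262. In clusters 3 and 4 fitted alone Epha2 was not called, unpaired or with the replicate block. The part of the class's makeup in the higher Epha2 was not tested. In regenerative-like cells Epha2 was at 26.9 and 20.4 CPM without EIPA and at 51.4 and 44.3 with it. There the log2 fold change was 1.16 ± 0.22, and the adjusted p was 0.0820 in edgeR unpaired and 5.41e-08 with the replicate block, in a class chosen for the test after its values were seen, in which the block called 10.4% of all genes. Leaving out -EIPA 1, +EIPA 1 or +EIPA 2, which leaves 1 library in an arm, brought the unpaired call in fits that called 1.06%, 2.29% and 2.28% of genes, against 0.19% with all 4 libraries, and leaving out -EIPA 2 did not. Without the Harmony correction of the clusters the value in regenerative-like cells was 0.52 ± 0.26, with an adjusted p of 1.00 in edgeR. Over all cells Epha2 was at 4.65 and 4.58 against 6.64 and 6.995 CPM (log2 0.65 ± 0.11, adjusted p of 0.245 in edgeR unpaired and 0.0295 with the replicate block), a sum in which regenerative-like cells made up 0.563% and 1.14% of the -EIPA cells and 1.21% and 3.01% of the +EIPA cells. ISC-like cells held 4.58 and 4.91 against 4.55 and 3.71 CPM. The difference from ISC-like to enterocyte-like cells was a log2 of 1.11 ± 0.24 (adjusted p of 0.447 in edgeR unpaired, 0.138 with the block), again with the sums of a library not paired.

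Of the other 5 members, Efna1 in proliferating cells passed with the replicate block: 33.0 and 30.7 CPM without EIPA and 24.1 and 26.9 with it (log2 -0.26 ± 0.09, adjusted p of 1.00 in edgeR unpaired and 0.0151 with the block). Ephb4 in enterocyte-like cells was at 7.06 and 10.6 against 5.39 and 5.47 CPM (log2 -0.56 ± 0.21, adjusted p of 0.261 in edgeR), and was called in the fit without -EIPA 1 that called 11.1% of genes, at log2 -0.78. In ISC-like cells the members ran from a log2 of -0.34 (Efnb2) to 0.08 (Ephb2) and in Paneth-like cells from -0.06 (Efnb1) to 0.15 (Ephb3), with none called in either fit. Ephb3, the receptor with the steepest gradient, was thus at 38.2 to 50.8 CPM in the Paneth-like cells of all 4 WT libraries, with and without EIPA. The median member was at a log2 of -0.08 in enterocyte-like cells, against -0.04 over all genes tested.

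**Figure D3:**
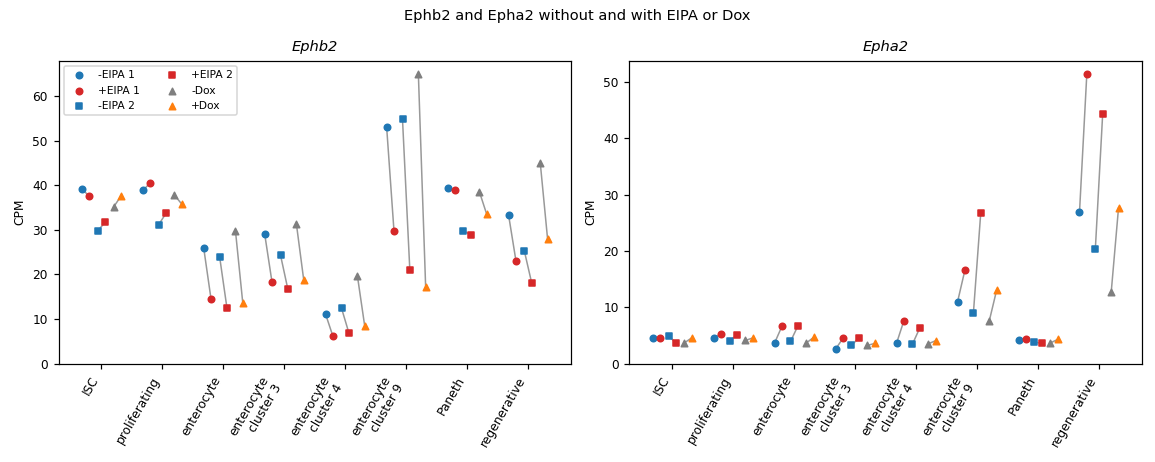
Ephb2 (left) and Epha2 (right) in CPM (vertical axis from 0) in ISC, proliferating, enterocyte, Paneth and regenerative classes and in the 3 large enterocyte clusters (horizontal axis); each grey line joins the -EIPA and +EIPA libraries of 1 experiment, or -Dox and +Dox. Ephb2 is lower in the treated library of every pair in the enterocyte columns and close to level in ISC, and Epha2 is higher in the treated library of every pair in the regenerative column.

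The CRISPR line allowed a second look at the same genes, with 1 library on each side and so no test and no check by replicates; the intervals given here are exact 95% ones and cover counting error only. In enterocyte-like cells Ephb2 was at 29.8 CPM in -Dox (1520 UMIs) and 13.7 in +Dox (919 UMIs), a log2 ratio of -1.13 (-1.25 to -1.01). It was the member with the largest difference there, and the only 1 of 7 past 1.5-fold in that class, where 10.7% of genes were lower and 7.17% higher by that much. Within clusters 3, 4 and 9 it was at 31.3, 19.7 and 65.1 CPM in -Dox and 18.8, 8.46 and 17.1 in +Dox, and cluster 4 made up 28.1% and 47.0% of the enterocyte-like cells. In ISC-like cells it was at 35.1 and 37.6 CPM (log2 0.10, -0.05 to 0.25) and in proliferating cells at 37.8 and 35.8. No member passed 1.5-fold in either class, where 1.59% and 2.15% of genes were higher and 1.93% and 1.51% lower.

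Epha2 in regenerative-like cells was at 12.7 CPM in -Dox (29 UMIs) and 27.6 in +Dox (106 UMIs), a log2 ratio of 1.13 (0.52 to 1.77); 9.76% of genes were higher and 19.2% lower by 1.5-fold or more in that class, Ephb2 among the lower (44.97 and 27.9 CPM). In enterocyte-like cells it was at 3.67 and 4.66 CPM, a log2 of 0.35 (0.08 to 0.61) that did not pass 1.5-fold and was -0.016 without the Harmony correction. Ephb4 in enterocyte-like cells was at 16.6 and 11.9 CPM (log2 -0.49), Efna1 in proliferating cells at 33.1 and 22.95 (log2 -0.53), and Efnb2 and Efna1 in enterocyte-like cells at 85.2 against 79.9 and 89.3 against 88.5. The +Dox library also had the highest median UMI count, 17020 against 11952 in -Dox, and its sort on GFP cannot be told apart from the effect of Dox.

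The rest of the pathway was read from 2 lists. Of 34 genes that carry Eph and ephrin signals (adaptors, Src-family kinases, exchange factors for small GTPases and the shedding protease Adam10), 33 were tested over all cells, 31 in ISC-like, 32 in proliferating, 31 in Paneth-like and 32 in enterocyte-like cells, and none rose or fell in edgeR's unpaired fits. DESeq2, also unpaired, called Kalrn higher over all cells and in enterocyte-like cells. The shares of all genes that the block called are those given above for each class, from 2.97% in Paneth-like to 10.4% in regenerative-like cells among the classes named here. With the replicate block Kalrn, an exchange factor downstream of EphB receptors, rose in enterocyte-like cells (log2 1.34 ± 0.26, adjusted p of 0.0315 in edgeR) and over all cells, Pik3r1 fell in ISC-like cells (log2 -0.26 ± 0.07), and in proliferating cells Vav3 rose (0.59 ± 0.11) and Adam10 fell (-0.18 ± 0.05). Of 14 WNT target genes, none was called by edgeR unpaired, and DESeq2 called Ascl2 higher in proliferating cells and Ccnd1 lower in enterocyte-like cells. With the block 3 of the 12 tested in proliferating cells rose, as 4.82% of all genes did there: Ascl2, a stem cell transcription factor (log2 0.64 ± 0.05, adjusted p of 1.50e-07 in edgeR), Cd44 (0.35 ± 0.06) and Axin2 (0.21 ± 0.05). With the block Ccnd1 fell in enterocyte-like cells (-0.70 ± 0.16), Cd44 rose in Paneth-like cells (0.47 ± 0.13), and none of 12 was called in ISC-like cells. Of the other 15 Eph receptors and ephrins, of which 4 to 8 could be tested in these 5 fits, none was called in either fit. In the smaller classes the block called Efna3 higher in Goblet-like cells (log2 1.12 ± 0.33) and Epha4 higher in regenerative-like cells (0.93 ± 0.25). It also called Ascl2 and Cd44 higher in Goblet-like cells, and Kalrn, Rock2, Rac1 and Myc higher in regenerative-like cells. The median of the WNT list in the unpaired fit was 0.24 in proliferating and -0.25 in enterocyte-like cells, against medians over all genes of 0.00 and -0.04.

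Genes outside the family with the most similar level over the 48 points of 8 classes and 6 libraries were named for each member by Pearson's r of log2(CPM + 1) among 9496 genes; the points share libraries, so r is a description. Ephb3 was closest to Maged1 (r = 0.93), Dach1 and Tceal9, and Efnb2 to Stap2 (0.93), Hsd17b2 and Cideb. Efna1 was closest to Aqp11 (0.94), Gm11437 and Idh1, Epha2 to Cdh16 (0.94), S100a4 and Gm13056, and Ephb4 to Gimap9 (0.90), Grhl2 and Ivns1abp. Ephb2 was closest to Safb2 (0.93), Rbbp6 and Kmt2a, whose products are nuclear proteins, and Efnb1 to Scamp2 (0.87), Cblc and Slc25a24.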

How the data were processed

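Single-cell RNA libraries of day 3 organoids were analysed. The deposited matrices hold UMI counts per gene and barcode, made by the authors with Cell Ranger 6.1.2 on mm10 (GRCm38), per the submitters' processing notes and the study's methods. Barcodes below 1000 detected genes, or with 20% or more of UMIs from mitochondrial genes, were dropped. Pearson residuals (theta of 100) of 3000 genes, 45 principal components, a Harmony correction over libraries written in numpy, and Leiden clusters (20 neighbours, resolution 0.8; scanpy 1.11.5 for Scrublet) gave 25 clusters, named from marker lists. Of these 5 stayed unnamed; a rule set after seeing the clusters left a low-UMI cluster led by genes of the rRNA locus unnamed. Doublets stayed in: Scrublet's automatic threshold marked under 0.5% of cells in 3 libraries.

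UMIs were summed per class and library and tested with edgeR 4.0.16 (R 4.3.3; TMM, filterByExpr, quasi-likelihood, Benjamini-Hochberg over all genes tested, threshold of 0.05), with DESeq2 1.42.0 as an alternative. In simulated counts for these libraries, 98% to 100% of 200 genes changed by a log2 of 1 were recovered, and 0.508% to 6.98% of the calls were false. The simulation drew each library independently, with the same small dispersion for every gene, and changed well-counted genes only. It held no effect of the experiment, so recovery in the real libraries was not measured. The study's source data give same-numbered WT libraries as 1 experiment, and their deviations from the group means correlated (r = 0.69 over all cells, 0.63 in ISC-like, 0.73 in proliferating, 0.47 in Paneth-like and 0.45 in enterocyte-like cells), so the replicate block is given where it changes a call. Class, axis and Dox differences are descriptions without a test. Class and Dox ratios are of CPM, without the TMM scaling that the fitted EIPA fold changes have. The gene targeted in the CRISPR line is not reported here. Doses and sorts come from the study's methods.

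The members, lists and tests were chosen with earlier results of these data known. The text names the 7 members, other family genes with a mean of 5 CPM in a class, at most 4 genes of a list per fit by smallest p, and the 3 genes most like each member among those with 10 CPM in a class. Other alternatives were library size scaling, no count filter, clusters without Harmony, Leiden resolution 1.6, cells with 2000 genes and under 10% mitochondrial UMIs, and leaving out each WT library.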

Additional observations from a re-analysis of the deposited data

How the results depend on the processing

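Of 602 alternative values of the members' EIPA fold changes, 514 kept the direction and the side of the threshold, 22 passed it, and 66 changed sign with no call on either side. The number of members called, 0 in the unpaired edgeR fits, became 1 over all cells with DESeq2 and with the replicate block, 1 in proliferating and 1 in Goblet-like cells with the block, and 2 in enterocyte-like cells with DESeq2, with no count filter and with the block. It was 1 and 2 in clusters 3 and 9 alone with the block, chosen after seeing the data, 1 in regenerative-like cells with no filter and with the block, and 2 in the test between classes with no filter, which called 1.56% of genes. Leaving out 1 library gave 0 to 3 members in enterocyte-like cells, 0 to 1 in regenerative-like cells and 0 in the other classes. Ephb2 then ran from -0.10 to 0.28 (log2) in ISC-like cells, where the sign turned, from -0.18 to 0.067 over all cells, and from -0.84 to -0.65 in enterocyte-like cells; Epha2 in enterocyte-like cells ran from 0.92 to 0.97. Over all genes, enterocyte-like cells had 4 calls, 545 with the block, 545 with DESeq2, 1249 with no filter and 0 to 1452 with a library left out, ISC-like cells 0, 839, 22, 130 and 0 to 13, proliferating cells 0, 1079, 121, 92 and 0 to 2, Paneth-like cells 31, 355, 83, 147 and 0 to 102, all cells 0, 839, 614, 198 and 0 to 137, and regenerative-like cells 19, 1038, 88, 513 and 7 to 245. Library size in place of TMM moved the median gene in enterocyte-like cells to -0.17. The cause of these differences was not tested.

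Without Harmony the log2 ratio of ISC-like to enterocyte-like cells was 1.88 for Ephb3 and -0.48 for Efnb1, and with the cells of highest Scrublet score left out, chosen after seeing the data, 3.17 for Ephb3. The Dox ratio of Ephb2 in enterocyte-like cells was -1.36 without those cells and -1.01 under stricter limits on cells. Without Harmony the Dox ratio in enterocyte-like cells was -0.40 for Ephb3 and -0.016 for Epha2, and in ISC-like cells it turned to -0.35 for Ephb3 and 0.53 for Efnb2. The other 25 of 28 refits of the ratio of ISC-like to enterocyte-like cells moved by less than 1 SD over libraries. The ratio of Paneth-like to ISC-like cells for Ephb3 moved from 0.34 ± 0.25 to 0.67 without Harmony. The planned use of Scrublet's automatic calls was not run. Depth limits Epha2 most, with 2 to 9 UMIs a library in tuft-like cells.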

Other observations

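Barcodes left out by the limits on cells, mostly of few UMIs, held 25.9 to 64.3 CPM of Ephb2, lowest in +Dox and highest in -Dox. In the low-UMI enterocyte-like cluster 9 Efna1 was at 112 to 156 CPM and Efnb2 at 89.8 to 125 CPM, above clusters 3 and 4 in the same libraries for Efnb2 in 6 of 6. In the smaller Goblet-like cluster a library had 3 to 38 Epha2 UMIs from 42 to 105 cells.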
